A study of Mus musculus with 9 samples.

Results

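The mouse genes for chromatin and DNA modifying enzymes were examined in CD4+ T cells, taken as the protein-coding genes whose symbols carry the family names Kdm, Kmt, Hdac, Tet, Dnmt, Setd, Ezh, Sirt or Kat. The rule reads gene symbols and no measured value, and it leaves out Kdm5d by name. It gave 71 genes of the 55573 gene identifiers counted, and 68 of them were among the 13328 genes with enough counts to be tested. The 3 left out were Dnmt3c, with 0 counts in every group, Dnmt3l, with 2 counts summed over the naive libraries, 0 at 37 °C and 1 at 39 °C, and Kdm4d, with 14, 13 and 14. Dnmt3c and Dnmt3l are known from the germ line.

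The cells came from the spleen of B6 mice, with no transgene or deletion named, and formed 3 groups of 3 RNA sequencing libraries each. Naive cells were not activated, and the other groups were kept for 3 h on anti-CD3 and anti-CD28 coated plates, which trigger T cell receptor signalling with costimulation, in an incubator at 37 °C or at the febrile temperature of 39 °C. By the labels, spleen cells were put into culture and CD4+ T cells were the source of the RNA. The step at which CD4+ cells were isolated is not given, nor is any time the naive cells spent in medium, so activation, time in culture and loss of other cells cannot be told apart. Whether replicates are separate mice or cultures is also not stated, and each p-value therefore reflects the spread among these samples alone, which may be technical. Totals were 12647692 to 17605549 counts per library.

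Most of these enzymes write or erase small chemical groups on histones or on DNA. Histone methyltransferases, among them most of the Kmt, Setd and Ezh genes, add methyl groups to lysines and the Kdm demethylases remove them. Kat acetyltransferases add acetyl groups that open chromatin, and the Hdac and Sirt deacetylases remove them. Dnmt enzymes methylate cytosine, and Tet enzymes oxidise the methylated base, the first step of its removal. In T cells they are known for shaping which cytokine and lineage genes can be switched on after antigen is met.

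**Figure D1:**
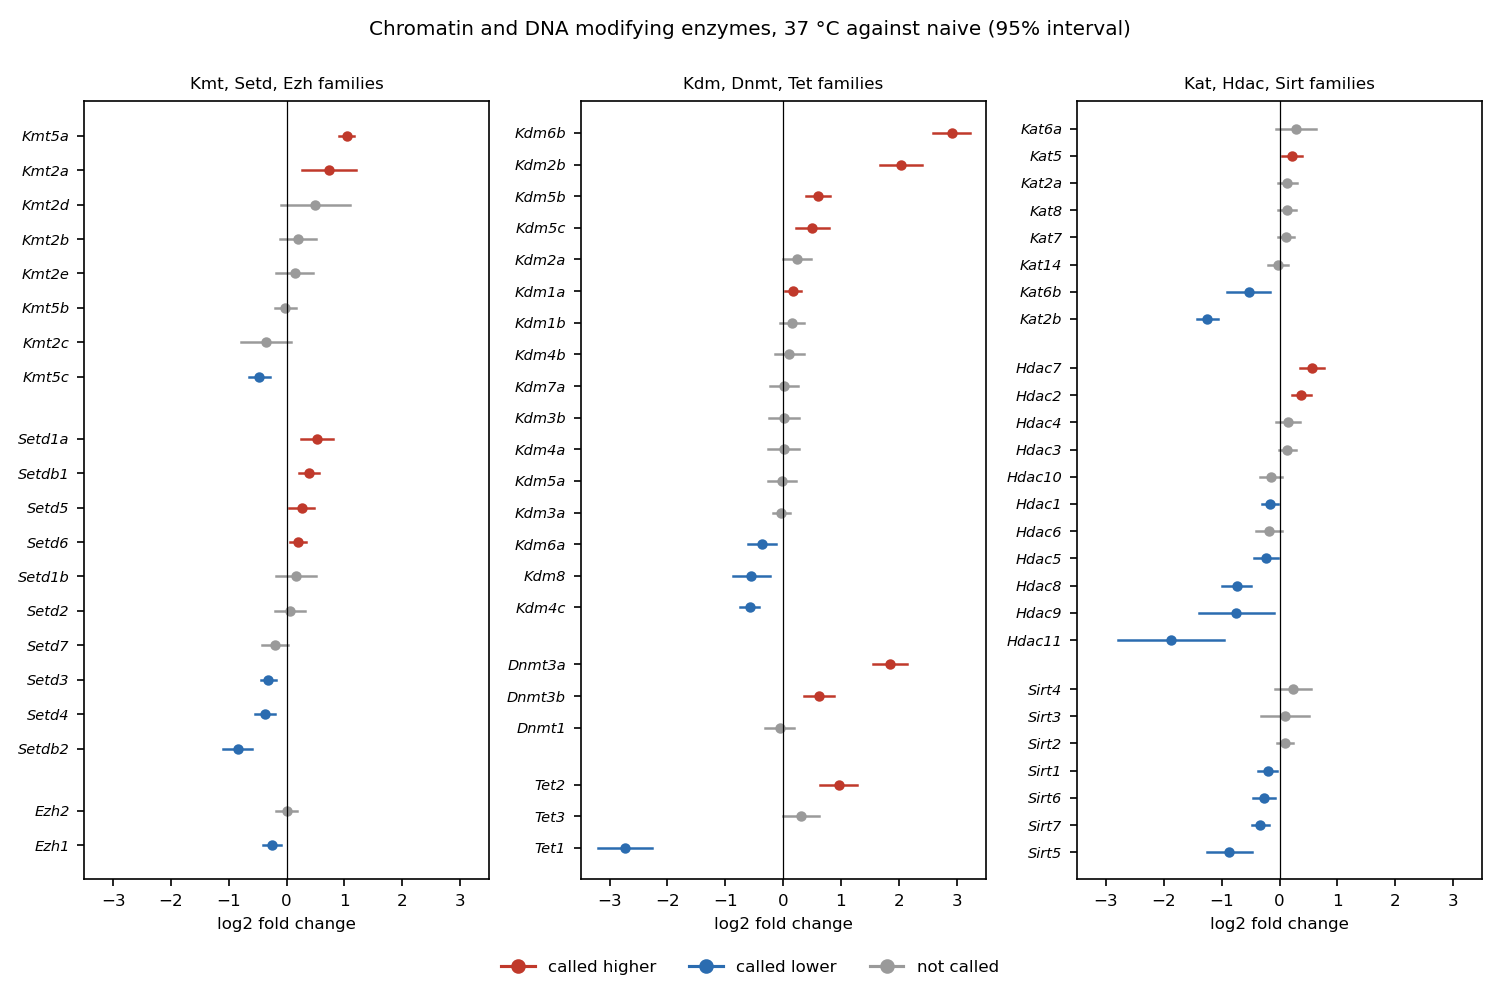
Log2 fold change of each of the 68 tested genes at 37 °C against naive (horizontal axis), grouped by symbol family, with the 95% interval of the edgeR fit as a line and called genes in colour. Kdm6b lies farthest to the right at 2.92 and Tet1 farthest to the left at -2.74, and 31 genes were not called.

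Between naive cells and cells activated at 37 °C these genes differed in both directions. Of the 68 tested, 17 had risen and 20 had fallen relative to naive cells at an adjusted p under 0.05 (edgeR quasi-likelihood test, Benjamini-Hochberg over all 13328 genes), and 31 passed in neither direction. That is 54.4% of the tested members, where 62.7% of all tested genes were called (30.9% higher and 31.8% lower). The share called was below the background, and that difference was not tested. The members' median log2 fold change was 0.07 and the median of its size was 0.26, against a median size of 0.49 over all tested genes. At a change of at least 2-fold, 4 members were higher and 3 lower, with a background of 10.8% higher and 10.5% lower. For 54.4% of the members the naive and 37 °C libraries did not overlap, against 65.4% of all tested genes, so a lack of overlap was common. With upper-quartile scaling, which shifted the median of all genes by -0.13 on the log2 scale, the split was 13 higher and 24 lower among members and 3340 higher and 5139 lower among all tested genes. A ± after a log2 fold change is its standard error from edgeR (n = 3 in every group). Levels are CPM, counts scaled by TMM to libraries of equal size with an allowance for the share taken by abundant genes.

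The 4 members that rose at least 2-fold were the demethylase genes Kdm6b and Kdm2b, the DNA methyltransferase gene Dnmt3a and the histone methyltransferase gene Kmt5a. The 3 that fell at least 2-fold were Tet1, Kat2b and Hdac11. All 7 were called at 39 °C against naive as well, a comparison that uses the same naive libraries. Hdac11 had few counts, 67 summed over the naive libraries, 16 at 37 °C and 28 at 39 °C. It met the count filter through the naive libraries, where it was high, so its fall is not independent of the filter. In GRCm38, Kdm6b (ENSMUSG00000018476) lies at chr11:69398508-69413675, Kdm2b (ENSMUSG00000029475) at chr5:122870665-122989823 and Tet1 (ENSMUSG00000047146) at chr10:62804570-62908996, all on the minus strand. Dnmt3a (ENSMUSG00000020661) lies at chr12:3806007-3914443, Kmt5a (ENSMUSG00000049327) at chr5:124439930-124462308, Kat2b (ENSMUSG00000000708) at chr17:53566861-53672720 and Hdac11 (ENSMUSG00000034245) at chr6:91156665-91174692, all on the plus strand.

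**Figure D2:**
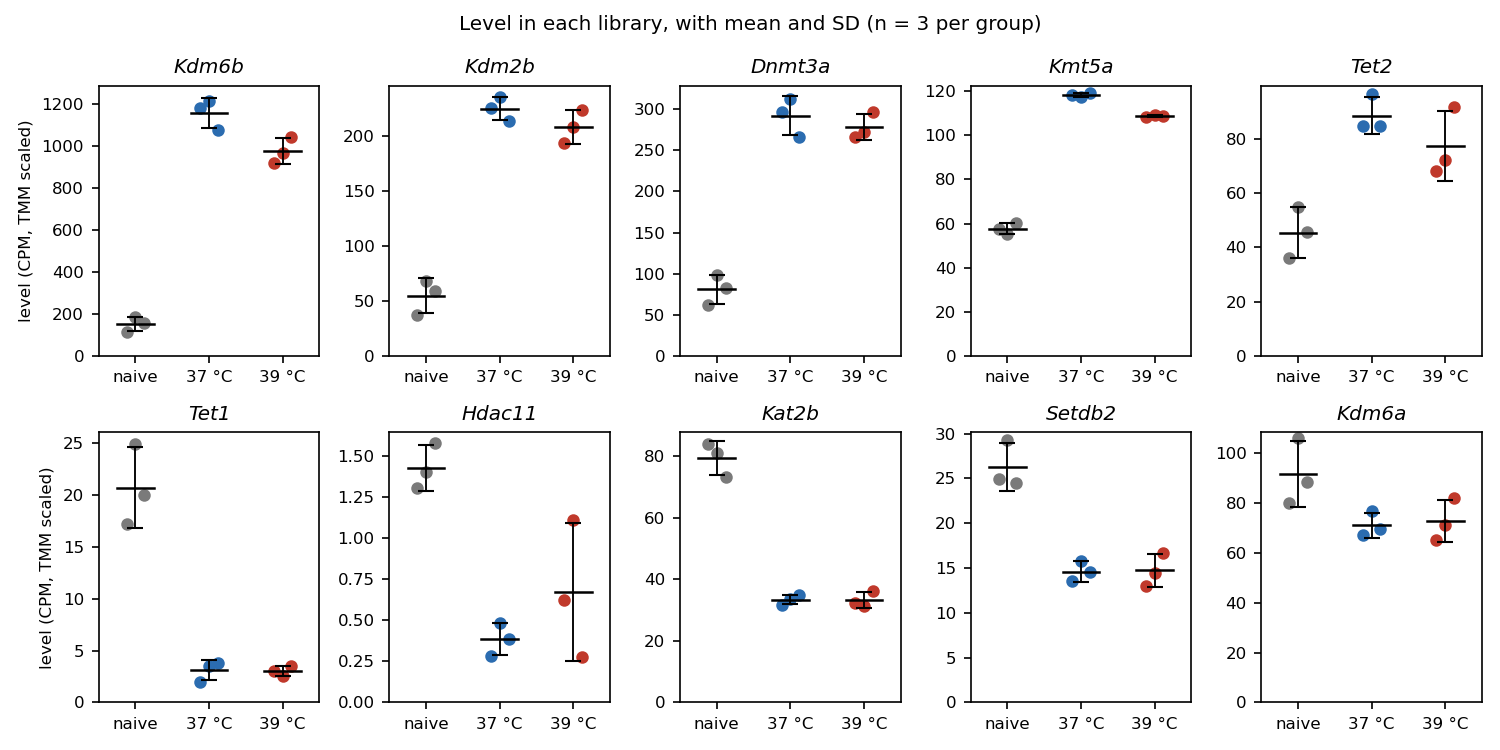
Level in CPM (vertical axis, from 0) of 10 genes in each of the 9 libraries, by group (horizontal axis), with 1 point per library and lines for the mean and SD. Kdm6b rises from 116 to 184 CPM in naive libraries to 1074 to 1213 CPM at 37 °C, and Tet1 falls from 17.2 to 24.9 CPM to 2.00 to 3.80 CPM.

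Among the enzymes of DNA methylation, the Tet genes moved apart from each other. Tet1 measured 17.2, 24.9 and 20.0 CPM in the naive libraries, 2.00, 3.52 and 3.80 at 37 °C and 2.99, 2.54 and 3.55 at 39 °C. Every activated library lay far below every naive one, and the activated groups overlapped. The fall was -2.74 ± 0.21 on the log2 scale at 37 °C (adjusted p = 3.69e-07, edgeR). Tet2 went the other way, from 36.0, 54.8 and 45.7 CPM to 84.7, 96.5 and 84.6 at 37 °C, with 68.0, 72.2 and 91.9 at 39 °C. The naive and activated groups did not overlap, and the rise at 37 °C was 0.96 ± 0.15 (adjusted p = 0.000108, edgeR). Tet3, the highest of the Tet genes per exon length, measured 190, 290 and 237 CPM in naive libraries and 287, 330 and 271 at 37 °C. Its groups overlapped, its difference was 0.31 ± 0.14 (adjusted p = 0.0738, edgeR), and without naive library 2 it was 0.47 and was called. Divided by exon length and summed, Tet1 made up 7.32% of the Tet level in naive cells, and 0.870% and 0.985% after activation at the lower and the higher temperature, while Tet2 went from 14.7% to 22.7% and 22.9%, and Tet3 from 78.0% to 76.4% and 76.1%. Exon length counts every base in any annotated exon of a gene. Shares and levels per exon length, here and below, therefore depend on which transcripts are annotated. In bulk RNA, fewer cells of a type and less RNA per cell cannot be told apart, here or in any fall below.

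The histone methyltransferase genes Setdb1 and Setdb2, whose products methylate histone H3 in silent chromatin, moved apart in the same way. Setdb1 rose by 0.39 ± 0.081 on the log2 scale (adjusted p = 0.00121, edgeR), from 66.4, 78.4 and 77.2 CPM to 96.1, 99.8 and 94.9. Setdb2 measured 24.9, 29.3 and 24.5 CPM in naive libraries, 13.5, 15.8 and 14.5 at 37 °C and 13.0, 14.5 and 16.7 at 39 °C, a fall of -0.84 ± 0.12 at 37 °C (adjusted p = 4.77e-05, edgeR). Neither pair of naive and 37 °C ranges overlapped. Per exon length, Setdb1 took 62.5% of the summed level in naive cells and 79.7% at 37 °C.

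The Tet and Setdb sets are the paralog sets holding both a called rise and a called fall in which each member has a single start in the RefSeq promoter table. The 250 bases before each start (RefSeq, GRCm38.p6, all on the minus strand, written 5′ to 3′) are shown because they let the promoters of genes that rose and fell be set side by side, with every CpG, the site that DNA methyltransferases and Tet enzymes act on, in capitals. They lie at chr10:62887325-62887574 (Tet1), chr3:133544391-133544640 (Tet2), chr6:83441679-83441928 (Tet3), chr3:95357203-95357452 (Setdb1) and chr14:59440881-59441130 (Setdb2). For the 3 Tet genes the RefSeq start lies inside the longer GENCODE gene model, whose other first exons are not shown.
Tet1: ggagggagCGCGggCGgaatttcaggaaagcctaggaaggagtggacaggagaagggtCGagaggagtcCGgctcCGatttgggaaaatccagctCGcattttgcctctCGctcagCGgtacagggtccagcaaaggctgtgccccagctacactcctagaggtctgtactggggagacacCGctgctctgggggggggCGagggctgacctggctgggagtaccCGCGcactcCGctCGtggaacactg
Tet2: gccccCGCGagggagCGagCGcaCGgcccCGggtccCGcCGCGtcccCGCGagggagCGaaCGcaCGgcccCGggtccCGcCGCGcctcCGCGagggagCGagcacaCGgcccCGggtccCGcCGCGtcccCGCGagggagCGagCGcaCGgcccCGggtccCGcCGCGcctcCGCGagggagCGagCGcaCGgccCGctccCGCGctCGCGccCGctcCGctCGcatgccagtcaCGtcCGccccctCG
Tet3: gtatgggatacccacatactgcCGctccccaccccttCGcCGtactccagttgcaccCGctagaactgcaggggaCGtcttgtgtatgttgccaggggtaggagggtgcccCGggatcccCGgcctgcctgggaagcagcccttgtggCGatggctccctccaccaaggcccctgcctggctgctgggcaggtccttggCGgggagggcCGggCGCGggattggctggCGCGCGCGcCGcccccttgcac
Setdb1: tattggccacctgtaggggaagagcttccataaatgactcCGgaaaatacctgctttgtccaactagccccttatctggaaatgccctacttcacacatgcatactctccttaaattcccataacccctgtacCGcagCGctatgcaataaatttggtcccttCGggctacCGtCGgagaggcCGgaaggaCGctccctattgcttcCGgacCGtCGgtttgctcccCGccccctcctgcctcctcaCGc
Setdb2: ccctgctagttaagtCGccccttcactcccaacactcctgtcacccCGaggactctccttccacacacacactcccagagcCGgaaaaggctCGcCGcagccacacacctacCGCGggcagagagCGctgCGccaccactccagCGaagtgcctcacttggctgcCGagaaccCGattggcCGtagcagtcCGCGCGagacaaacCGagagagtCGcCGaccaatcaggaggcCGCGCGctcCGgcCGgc

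Tet2, which rose, had 51 CpG in this window, a number that 99.95% of the promoter windows do not exceed, in a run of repeated units. Tet1, which fell, had 15 and Tet3 had 17, while of the Setdb genes the one that fell, Setdb2, had 24 and Setdb1 had 13. Over all members in the RefSeq table, 56 matched by symbol, with 80 starts and a median of 17 CpG, against 15 over the starts of the other tested genes and 6 over all starts in the table. The GC box letters GGGCGG, searched on both strands, stood once each in the windows of Setdb1, Tet1, Tet2 and Tet3 and not in that of Setdb2. They stood in 61.3% of member windows, 56.7% of the 11873 windows of other tested genes and 32.7% of all 32851. The AP-1 letters TGANTCA stood in 7.5%, 4.15% and 6.75%, the E-box letters CACGTG in 6.25%, 8.35% and 6.02% and the CRE letters TGACGTCA in 0%, 2.70% and 1.55%. None of these other letters stood in the 5 windows shown. A match is a description of the letters and not of binding.

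The DNA methyltransferase genes that set new methylation rose, and the one that maintains it after replication was not called. Dnmt3a measured 62.2, 97.8 and 82.3 CPM in naive libraries, 296, 313 and 266 at 37 °C and 267, 272 and 296 at 39 °C, with no overlap between naive and activated libraries. Its rise at 37 °C was 1.85 ± 0.13 on the log2 scale (adjusted p = 2.1e-07, edgeR). Dnmt3b, at 10.9, 13.5 and 12.4 CPM in naive cells and 18.6, 20.9 and 16.9 at 37 °C, rose by 0.62 ± 0.12 (adjusted p = 0.000562, edgeR). Dnmt3a made up 66.6% of the Dnmt3a and Dnmt3b level per exon length in naive cells and 82.6% and 82.7% after activation at 37 °C and 39 °C. The maintenance gene Dnmt1 differed by -0.06 ± 0.12 (adjusted p = 0.666, edgeR), with naive values of 113, 166 and 153 CPM that enclosed the 136, 144 and 134 at 37 °C. Without naive library 1 it stood at -0.21 and was called.

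Of the histone demethylases, 5 of 16 tested genes rose and 3 fell, where the background was 30.9% higher and 31.8% lower. Kdm6b removes the repressive methyl mark that Ezh1 and Ezh2 lay on histone H3. It measured 116, 184 and 159 CPM in naive libraries, 1183, 1213 and 1074 at 37 °C and 919, 966 and 1045 at 39 °C. No naive library came near an activated one, and the activated groups also did not overlap, with 39 °C the lower. The rise at 37 °C was 2.92 ± 0.14 on the log2 scale, or 7.55-fold (adjusted p = 7.67e-09, edgeR). Kdm6a, the X-linked paralog with the same substrate, fell from 80.2, 106 and 88.7 CPM to 67.1, 76.9 and 69.7 (-0.36 ± 0.11, adjusted p = 0.013, edgeR), a call that was lost without 37 °C library 1, at -0.32. Kdm6b thus went from 66.5 ± 2.56% of the summed Kdm6 level per exon length to 95.1 ± 0.326% at 37 °C and 94.2 ± 0.280% at 39 °C (SD, n = 3).

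Kdm2b, which binds unmethylated CpG and is known for bringing a polycomb complex to such sites, measured 37.2, 68.3 and 59.2 CPM in naive libraries, 226, 236 and 214 at 37 °C and 194, 208 and 224 at 39 °C. The naive and activated ranges were far apart, and the rise at 37 °C was 2.04 ± 0.17 (adjusted p = 5.96e-07, edgeR). Its paralog Kdm2a differed by 0.24 ± 0.11 (adjusted p = 0.0829, edgeR) and was called without naive library 2, at 0.38. Kdm2b rose from 30.2% of their summed level per exon length to 60.6% at 37 °C. The genes of enzymes that erase the active promoter methyl mark, Kdm5b (0.60 ± 0.093, adjusted p = 0.000136, edgeR) and the X-linked Kdm5c (0.50 ± 0.13, adjusted p = 0.00534, edgeR), rose, and Kdm5a did not pass at -0.02 ± 0.11. Kdm1a, the flavin-dependent demethylase gene, rose by 0.17 ± 0.061 (adjusted p = 0.0269, edgeR), and its call was lost without naive library 2 (0.15) or 3 (0.17) or 37 °C library 1 (0.16) or 3 (0.16). Kdm4c fell by 0.58 on the log2 scale (SE 0.078, adjusted p = 4.06e-05, edgeR) while its paralogs Kdm4a and Kdm4b stood at 0.01 and 0.11 and were not called, and Kdm8 fell by 0.55 (SE 0.15, adjusted p = 0.00672, edgeR). Xist and the Y-linked Ddx3y were both counted in all 9 libraries, at 211 to 379 and 41.5 to 108 CPM, with Ddx3y at 41.5 to 53.0 in naive libraries and 91.9 to 105 at 37 °C. Their part in the values of the X-linked Kdm5c, Kdm6a, Hdac6 and Hdac8 was not tested.

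**Figure D3:**
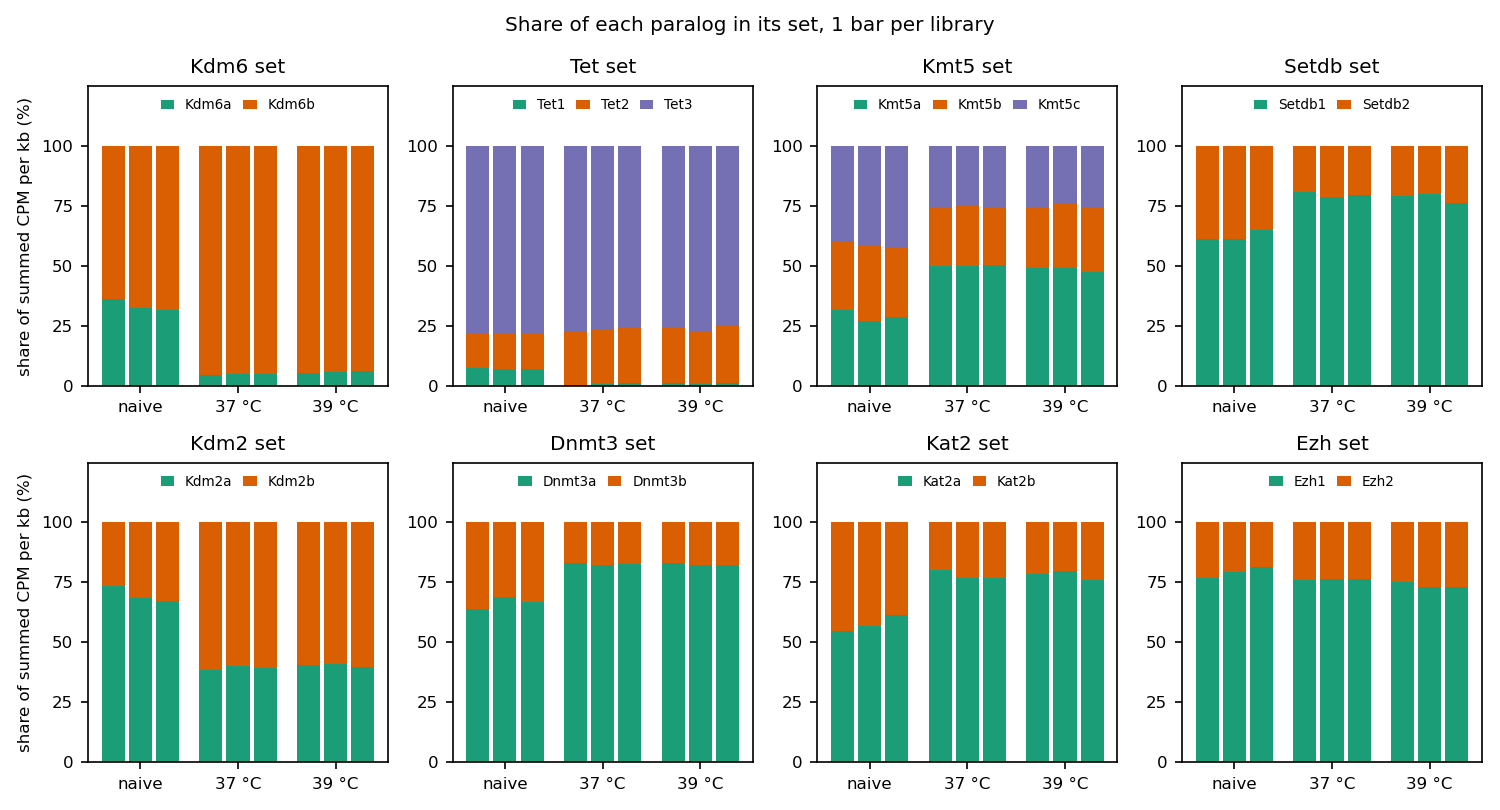
Share of the summed level per exon length (percent, vertical axis) taken by each gene of a paralog set, as stacked bars, 1 per library, in naive, 37 °C and 39 °C groups. Kdm6b goes from 66.5% to 95.1% and 94.2%, and Kmt5a from 29.0% to 50.1% and 48.6%.

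Among the genes named Kmt, Setd or Ezh, 2 of 8 Kmt genes, 4 of 10 Setd genes and 0 of 2 Ezh genes rose, and 1, 3 and 1 fell. The background was again 30.9% higher and 31.8% lower, near the 30% of all 20 of these genes that rose and the 25% that fell. Kmt5a, which adds the first methyl group to a lysine of histone H4, measured 57.7, 55.1 and 60.2 CPM in naive libraries, 118, 118 and 119 at 37 °C and 108, 109 and 109 at 39 °C. The 3 groups did not overlap, with 37 °C the highest, and the rise at 37 °C was 1.04 ± 0.06 on the log2 scale (adjusted p = 2.88e-08, edgeR). Kmt5c, which adds the further methyl groups to the same lysine, fell by 0.47 (SE 0.083, adjusted p = 0.000369, edgeR), and Kmt5b, with the same activity, stood at -0.02 ± 0.081. Kmt5a went from 29.0% of the Kmt5 level per exon length to 50.1% at 37 °C and 48.6% at 39 °C.

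The genes Kmt2a to Kmt2d encode the large catalytic subunits of the complexes that mark active promoters and enhancers. Kmt2a measured 296, 571 and 396 CPM in naive libraries and 665, 822 and 609 at 37 °C, and rose by 0.73 ± 0.21 (adjusted p = 0.0105, edgeR). Kmt2d spread further, with 333, 884 and 626 CPM in naive libraries and 850, 1007 and 742 at 37 °C. Its groups overlapped, the difference was 0.50 ± 0.27 (adjusted p = 0.132, edgeR), and without naive library 2 it was 0.85 and was called. Kmt2c differed by -0.35 ± 0.20 (adjusted p = 0.143, edgeR) and was called without naive library 1, at -0.51. The related Setd1a, of the promoter-marking complexes, rose by 0.53 ± 0.13 (adjusted p = 0.00339, edgeR), but 51.8% of its exon bases are shared with the readthrough gene model Gm49388 on the same strand, so its level is uncertain. Setd2, the writer of the gene body mark, stood at 0.05 ± 0.12. Setd3, which methylates actin, fell by 0.32 and Setd4 by 0.37 on the log2 scale. Setd6, a methyltransferase of an NF-kB subunit, rose by 0.20 ± 0.065 (adjusted p = 0.0177, edgeR), with the call lost without naive library 2 (0.17) or 37 °C library 2 (0.20), and Setd5 rose by 0.26 ± 0.099 (adjusted p = 0.0383, edgeR), with the call lost in 6 of the 9 fits that left out a library, at 0.15 to 0.26.

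Of the catalytic subunits of polycomb repressive complex 2, Ezh1 fell slightly and Ezh2 did not. Ezh1 went from 112, 129 and 130 CPM to 104, 103 and 102 (-0.26 ± 0.07, adjusted p = 0.00684, edgeR), and the ranges did not overlap. Ezh2 measured 30.3, 29.8 and 26.6 CPM in naive libraries and 29.5, 28.8 and 28.3 at 37 °C, a difference of 0.00 ± 0.084 with a 95% interval of -0.18 to 0.19. Per exon length Ezh1 made up 79.2% of the pair in naive cells and 76.2% at 37 °C.

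Of the 8 Kat acetyltransferase genes 1 rose and 2 fell, or 12.5% and 25%, against 30.9% and 31.8% of all tested genes. Kat2b measured 83.9, 81.0 and 73.1 CPM in naive libraries, 31.8, 33.6 and 34.9 at 37 °C and 32.3, 31.4 and 36.2 at 39 °C. Every activated library was below every naive one, and the fall at 37 °C was -1.25 ± 0.082 (adjusted p = 8.55e-08, edgeR). Kat2a, which can take its place in the same coactivator complexes, stood at 0.13 ± 0.075 (adjusted p = 0.138, edgeR), so that its share of the pair's level per exon length went from 57.8% in naive cells to 78.1% in both activated groups. Kat6b fell by 0.54 on the log2 scale (SE 0.17, adjusted p = 0.0143, edgeR), a call lost without naive library 3 (-0.50) or 37 °C library 3 (-0.46). Kat5, the catalytic subunit of the Tip60 acetyltransferase complex, rose by 0.22 ± 0.077 (adjusted p = 0.0263, edgeR), a call lost without naive library 1 (0.14) or 37 °C library 1 (0.20) or 2 (0.22). Kat6a, Kat7, Kat8 and Kat14 were not called, and Kat6a was called without naive library 2, at 0.48.

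Of the 11 Hdac deacetylase genes 2 rose and 5 fell, or 18.2% and 45.5%, against 30.9% and 31.8% of all tested genes. Hdac7, a class IIa deacetylase gene known from T cell development, went from 206, 263 and 271 CPM to 373, 377 and 344 at 37 °C and 351, 364 and 362 at 39 °C. The activated libraries were all above the naive ones, and the rise at 37 °C was 0.56 ± 0.096 (adjusted p = 0.00028, edgeR). Of the nuclear class I deacetylases, Hdac2 rose by 0.37 ± 0.076 (adjusted p = 0.00104, edgeR), Hdac8 fell by 0.74 on the log2 scale (SE 0.11, adjusted p = 0.000105, edgeR), and Hdac3 stood at 0.14 ± 0.07 (adjusted p = 0.105, edgeR), called without naive library 1 at 0.19. Hdac1, the gene with the highest naive level per exon length of all members, fell from 172, 156 and 173 CPM to 151, 145 and 151 (-0.17 ± 0.065, adjusted p = 0.0414, edgeR), and the call was lost in 6 of the 9 fits that left out a library, at -0.17 to -0.14. Hdac11 had 1.31, 1.40 and 1.58 CPM in naive libraries, 0.286, 0.482 and 0.388 at 37 °C and 0.623, 1.11 and 0.279 at 39 °C, which did not overlap with naive and gave -1.87 ± 0.42 at 37 °C (adjusted p = 0.00206, edgeR). It shares 17.9% of its exon bases with genes on the opposite strand, and the strand setting of the counts is not stated. The same holds for Kdm3b (24.6%), Hdac4 (22.4%), Sirt3 (12.7%) and Kat5 (12.1%), whose levels are uncertain to that extent, and Kat14 shares 14.7% with Pet117 on the same strand. Hdac9 (-0.75 ± 0.30, adjusted p = 0.046, edgeR) and Hdac5 (-0.23 ± 0.094, adjusted p = 0.0499, edgeR) lay near the threshold and lost their calls in 5 and 8 of the 9 fits that left out a library, at -0.75 to -0.59 and -0.24 to -0.17.

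Of the 7 sirtuin genes, for deacylases that depend on NAD, 0 rose and 4 fell, where 30.9% of all tested genes were higher and 31.8% lower. With 7 genes, the difference from that background was not tested. Sirt5, whose product removes acyl groups in mitochondria, went from 9.01, 8.76 and 8.68 CPM to 3.43, 5.86 and 5.20 (-0.87 ± 0.18, adjusted p = 0.00112, edgeR). Sirt7, of the nucleolus and the highest sirtuin gene per exon length, went from 219, 197 and 215 CPM to 168, 171 and 162 (-0.33 ± 0.065, adjusted p = 0.000775, edgeR). Neither gene overlapped between the groups. Sirt6, of the nucleus, fell by 0.27 on the log2 scale (SE 0.087, adjusted p = 0.019, edgeR), a call lost without naive library 3 (-0.25) or 37 °C library 1 (-0.24) or 2 (-0.23). Sirt1 fell by 0.20 (SE 0.076, adjusted p = 0.0331, edgeR), and its call was lost in 6 of the 9 fits that left out a library, at -0.23 to -0.18. Sirt2 (0.09), Sirt3 (0.10) and Sirt4 (0.23) were not called, and Sirt2 was called without naive library 1, at 0.14.

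Over the whole set, leaving out 1 library changed the call of 23 members in this comparison. Beside those above, Hdac6 (-0.27), Hdac10 (-0.21) and Setd7 (-0.29) were called without naive library 1, and Hdac4 (0.23) without naive library 2. Of the 17 rises 13, and of the 20 falls 13, were called under all 18 alternatives, which include each fit without a library. Upper-quartile scaling ended the calls of Kat5 (0.08), Kdm1a (0.04), Setd5 (0.12) and Setd6 (0.07), and DESeq2 did not call Hdac1, Hdac5, Hdac9, Kat5, Setd6 or Sirt1.

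Per kilobase of exon, the tested members had a median level of 12.4 CPM before activation and of 12.7 (37 °C) and 12.6 (39 °C) after it, against 5.62, 5.61 and 5.62 over all tested genes. In naive cells the order was led by Hdac1 at 48.5 CPM per kilobase, Sirt7 at 40.8 and Hdac7 at 36.5. Kdm6b ranked 8 of the 68 there at 22.0, and led at 37 °C with 166 CPM per kilobase, ahead of Hdac7 at 54.0 and Kmt2d at 43.5. At 39 °C Kdm6b led with 140, followed by Hdac7 at 53.1 and Hdac1 at 44.7.

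The members are long transcripts, and their spread between libraries of a group went with length, in naive and activated cells. Their median exon length was 6717 bases against 3990 over all tested genes, and 58 of 68 were longer than that median. In naive library 1 the 34 longer members had a median deviation from the mean of the group of -0.28 on the log2 scale and the 34 shorter ones -0.06, whereas in naive library 2 the longer members stood at 0.24 and the shorter at -0.00. Across the 68 genes, the Spearman correlation of the deviation with exon length was -0.63 in naive library 1 and 0.80 in naive library 2, and it was -0.36 and 0.39 across the other 13258 tested genes. In the activated groups the members' correlation was 0.57 and -0.58 in 37 °C libraries 2 and 3 and -0.65 and 0.71 in 39 °C libraries 1 and 3, and in the remaining 3 libraries it lay between -0.28 and -0.13. The genes share a library, so these are descriptions. Of the members called higher the median exon length was 6853 bases, of those called lower 5355, and of those not called 8225. The part of this length pattern in the calls was not tested beyond refitting with the trend removed. That refit called 18 members higher and 23 lower at 37 °C against naive, and 4311 and 4373 of all 13326 genes in it. Members that gained a call there were Hdac3 (0.15), Kat8 (0.19), Kdm5a (-0.15), Kmt2c (-0.51), Kmt5b (-0.16) and Setd7 (-0.30). Setd5 (0.10) and Hdac1 (-0.13) lost theirs.

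**Figure D4:**
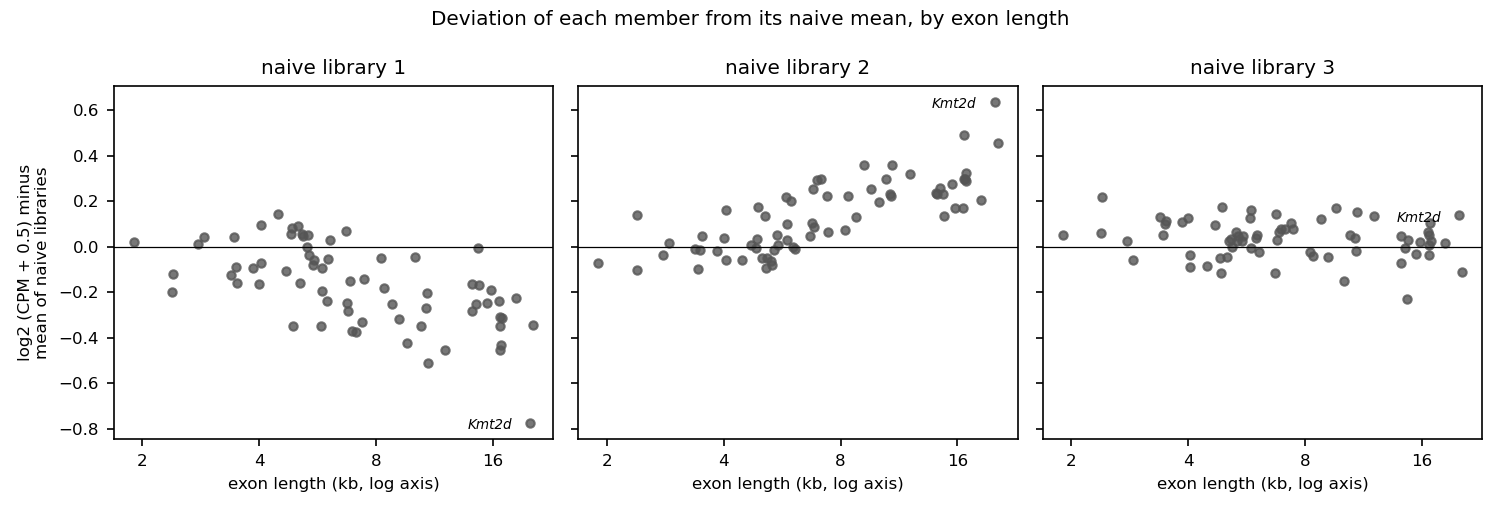
Deviation of each tested gene of the set from its naive group mean (log2, vertical axis) against exon length (kilobases, log axis) in the 3 naive libraries. Long genes lie low in naive library 1 and high in naive library 2.

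Genes that work with these enzymes also changed in both directions, with more rises than falls. Of 115 partner genes listed (complex subunits, readers and other enzymes of the same kinds), 114 were tested. Of these, 55 were higher and 22 lower at 37 °C than in naive cells, with a background of 30.9% and 31.8%. The difference from that background was not tested. Of the COMPASS and MLL complex subunits 4 of 11 rose, among them Wdr5 (0.98) and Hcfc1 (0.74), and 2 fell, Dpy30 (-0.36) and Psip1 (-0.25). Of the subunits of polycomb repressive complex 2, 6 of 9 rose, with Jarid2 (1.24) and Rbbp7 (1.08) at the top, and 2 fell, Phf19 (-1.11) and Phf1 (-0.69). Of the other histone methyltransferases 15 of 21 rose, including Smyd5 (2.08) and Dot1l (1.80), and 4 fell, including Smyd3 (-0.80) and Smyd4 (-0.73). All values in brackets are log2 fold changes at 37 °C against naive.

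The counts that follow stand against the same background of 30.9% higher and 31.8% lower. Of the other demethylases, 3 of 9 rose, including Riox1 (0.96) and Riox2 (0.55), and 1 fell, Phf2 (-0.29). Of the other acetyltransferases and their subunits 13 of 26 rose, including Gtf3c4 (1.11) and Hat1 (1.10), and 5 fell, including Ing2 (-0.64) and Msl1 (-0.53). Of the subunits of deacetylase corepressor complexes 9 of 24 rose, including Sap30 (1.41) and Chd4 (0.99), and 5 fell, including Trerf1 (-1.96) and Mbd2 (-0.83). Of the readers and repair factors of DNA methylation 5 of 14 rose, including Gadd45b (2.45) and the glycosylase gene Tdg (0.90), which acts after the Tet enzymes, and 3 fell, including Gadd45a (-1.98) and Trdmt1 (-1.36).

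Markers of other cells moved with the same comparison. B cell markers summed to 778 to 926 CPM in naive libraries and 272 to 284 at 37 °C, with 10 of 12 lower and 1 higher. NK cell markers went from 42.5 to 57.9 CPM down to 24.4 to 26.2 (5 of 5 tested lower), CD8 T cell markers from 25.8 to 36.1 down to 13.5 to 15.1 (2 of 2), and myeloid markers from 18.2 to 23.9 down to 9.01 to 10.4 (5 of 6), with Fcgr1, S100a9 and Csf3r at 0 at 37 °C. Erythroid and platelet markers went from 142 to 232 CPM down to 9.15 to 9.65 (5 of 6). CD4 T cell markers summed to 5769 to 7574 and 6496 to 6842 CPM, with 5 of 11 lower and 3 higher. At 39 °C the sums were 297 to 310 (B cell), 20.7 to 22.9 (NK cell), 12.6 to 14.6 (CD8 T cell), 8.27 to 11.2 (myeloid), 9.46 to 9.90 (erythroid and platelet) and 6767 to 7321 CPM (CD4 T cell). The part of these cells in the falls of Tet1, Kat2b, Hdac11, Setdb2 and the other members was not tested.

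Between cells activated at 39 °C and at 37 °C, the comparison that addresses a febrile temperature, none of these genes was called. Of the 68 tested members 0 were higher and 0 lower (edgeR, and likewise with DESeq2), where 0.758% of all tested genes were called, 0.135% higher and 0.623% lower. At 2-fold or more the background was 0.218%, with 0.03% higher and 0.188% lower. At an unadjusted p under 0.05 there were 2 members, Sirt6 and Hdac4, and 7.96% of all tested genes. The difference was negative for 46 members and positive for 22, with a median of -0.04 on the log2 scale. Over all tested genes the median was 0.004 and the quartiles were -0.10 and 0.11. The split of signs, and the part in it of the length pattern described above, were not tested. For 11 members, or 16.2%, the libraries of the groups did not overlap, against 20.9% of all tested genes. The 95% interval of the difference lay within 1.25-fold for 36 members, within 1.5-fold for 60 and within 2-fold for 66 of 68.

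**Figure D5:**
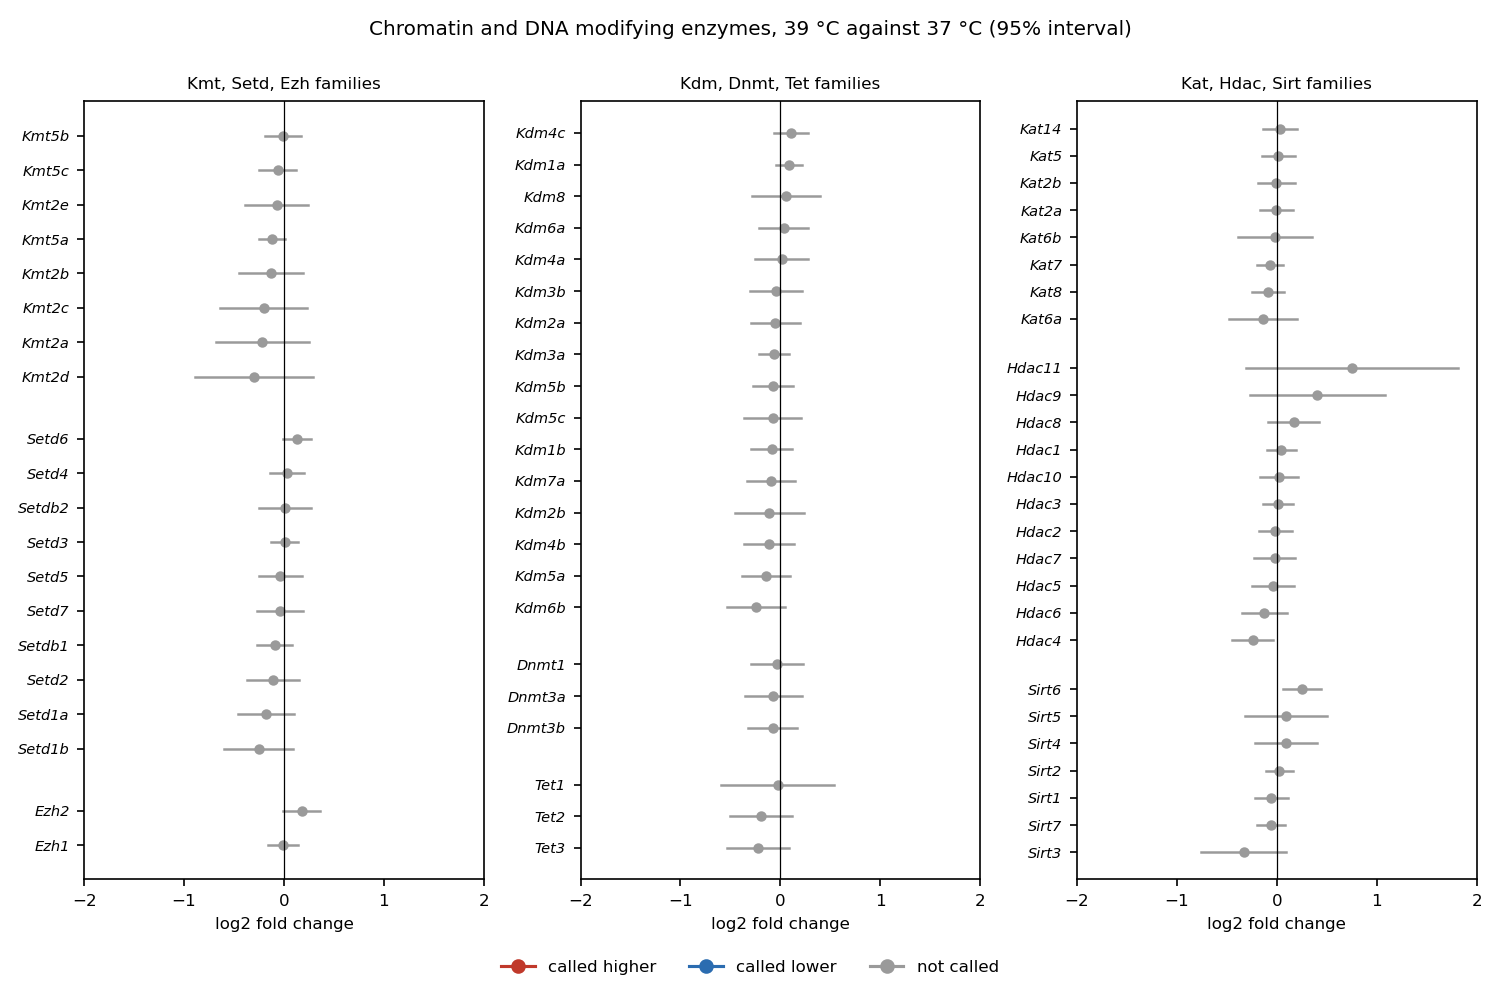
Log2 fold change of each tested gene of the set at 39 °C against 37 °C (horizontal axis) with the 95% interval of the edgeR fit, grouped by symbol family. No gene was called, and the interval of Hdac11, from -0.31 to 1.81, is the widest.

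The 6 members with the smallest p were Sirt6, Hdac4, Ezh2, Kmt5a, Setd6 and Kdm6b. Sirt6 was at 36.2, 35.6 and 30.1 CPM at 39 °C against 27.7, 27.4 and 30.7 at 37 °C and 34.6, 33.5 and 35.0 in naive libraries, so that the activated groups overlapped (0.25 ± 0.088, adjusted p = 0.417, edgeR). Hdac4, a class IIa deacetylase gene, had 51.5, 58.6 and 60.1 CPM at 39 °C against 70.0, 66.3 and 65.1 at 37 °C, without overlap (-0.24 ± 0.095, adjusted p = 0.505, edgeR). Ezh2 had 30.1, 33.0 and 34.9 CPM at 39 °C, all above the 3 libraries at 37 °C (0.18 ± 0.084, adjusted p = 0.657, edgeR). Kmt5a (-0.12 ± 0.059, adjusted p = 0.662, edgeR) and Setd6 (0.13 ± 0.065, adjusted p = 0.666, edgeR) also did not overlap.

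Kdm6b, the member that rose most with activation, stood at -0.24 ± 0.13 at 39 °C against 37 °C, with a 95% interval of -0.54 to 0.05 and an adjusted p of 0.732 (edgeR), although its libraries did not overlap. Fitted with the 6 activated libraries alone it was at -0.25 with an adjusted p of 0.046 and was called, and across the other alternatives the adjusted p ranged from 0.114 to 1.0. The naive libraries, which that fit leaves out, spread from 116 to 184 CPM. Tet1 (-0.03 ± 0.26), Kat2b (-0.00 ± 0.084), Kdm2b (-0.11 ± 0.16) and Dnmt3a (-0.07 ± 0.13) were not called and their groups overlapped. Tet2 (-0.20 ± 0.14, 95% interval -0.51 to 0.11), with overlapping groups, was also not called, at a difference larger than the median size of 0.08 over the members.

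Of the 114 partner genes tested, 1 was called between the temperatures, a share near the 0.758% of all tested genes and so no result about the partners as a group. Tbl1xr1, a subunit of the corepressor complex that holds Hdac3, measured 91.6, 89.6 and 84.3 CPM in naive libraries, 59.2, 56.2 and 61.5 at 37 °C and 73.6, 73.0 and 76.9 at 39 °C. The 3 groups did not overlap, with 39 °C between the others. The log2 fold change was -0.59 at 37 °C against naive and 0.34 ± 0.066 at 39 °C against 37 °C (adjusted p = 0.0386, edgeR). Without naive library 3 the adjusted p was 0.0545 (edgeR), and the call was also lost without any one of the 6 activated libraries (0.31 to 0.37, adjusted p = 0.117 to 0.284, edgeR) and with the replicate number as a block (0.34, adjusted p = 0.0658, edgeR). No gene of the marker lists was called between the temperatures.

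The comparison of 39 °C with naive cells shares its naive libraries with that of 37 °C, so the values stand side by side and their likeness is no separate result. At 39 °C 15 members were higher and 19 lower than naive (edgeR), with 58.9% of all tested genes called, 29.2% higher and 29.8% lower, and 3 members in each direction changed at least 2-fold, where 9.34% and 9.32% of all tested genes did. With upper-quartile scaling the split was 10 higher and 24 lower among members and 3092 and 4914 among all tested genes. The log2 fold changes were 2.67 ± 0.14 for Kdm6b, 1.92 ± 0.17 for Kdm2b, 1.78 ± 0.13 for Dnmt3a, 0.91 ± 0.06 for Kmt5a, -2.76 ± 0.21 for Tet1, -1.25 ± 0.082 for Kat2b and -1.12 ± 0.38 for Hdac11. Kmt2a (0.51, adjusted p = 0.0569, edgeR), Setd5 (0.22), Hdac1 (-0.12), Hdac9 (-0.34) and Sirt6 (-0.02) were called at 37 °C and not at 39 °C, and Hdac6 (-0.30, adjusted p = 0.0218, edgeR) and Kmt2c (-0.55, adjusted p = 0.0311, edgeR) at 39 °C and not at 37 °C. For none of these 7 was the difference between the temperatures itself called. Leaving out 1 library changed the call of 26 members at 39 °C against naive. Of the genes named here, Hdac11 lost its call without naive library 3 (-1.04) or 39 °C library 1 (-1.09) or 3 (-0.75), Hdac6 without naive library 3 (-0.22) or 39 °C library 3 (-0.24), and Kmt2c without naive library 2 (-0.29) or 39 °C library 1 (-0.43) or 2 (-0.53). Kmt2a was called without naive library 2 (0.79) or 39 °C library 1 (0.64), Setd5 without naive library 2 (0.33) and Hdac1 without naive library 2 (-0.17).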

How the data were processed

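The deposited tables, 1 per library, hold a gene identifier and a raw count of reads, not normalised. GRCm38, HISAT2, HTSeq, FastQC and DESeq2 are named per the submitters' processing notes, without a version or role. The annotation release and strand setting are not given in the sources used here. Libraries were TruSeq RNA libraries from TRIzol extracts, per the labels' protocols. Of 55573 identifiers 55480 matched GENCODE M21 (GRCm38), which gave symbols, exon lengths and positions, and promoter sequences are from RefSeq (GRCm38.p6).

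The filter was filterByExpr of edgeR 4.0.16 (R 4.3.3), with a minimum count of 10 and a minimum total of 15. TMM scaling and a single quasi-likelihood fit of the 9 libraries followed. Tests were 2-sided, adjusted by Benjamini-Hochberg over 13328 genes, with a threshold of 0.05. Each standard error is the size of the log2 fold change divided by the root of its F. The members, gene lists and alternatives were chosen with earlier results of these data known. All members could be named; full values were given to the up to 3 called members with the largest rise and fall of each family, the 6 with the smallest p between temperatures, 20 fixed by name, and up to 2 rises and 2 falls of each partner list. Mideas was matched through its older symbol Elmsan1. The fit was tested on simulated data with the same dispersion for every gene and no trend with exon length. These libraries differ from that, so the simulation does not cover their spread. Counts without molecular identifiers are not independent molecules.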

Additional observations from a re-analysis of the deposited data

How the results depend on the processing

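No member's called change reversed direction under any alternative. Relative to 17 higher and 20 lower members at 37 °C against naive and 15 and 19 at 39 °C against naive, a minimum change of 2-fold left 4 and 3, and 3 and 3. The fit of the 6 libraries of each contrast alone called 1 member lower at 39 °C than at 37 °C, Kdm6b. It called 136 higher and 265 lower of all 12751 genes tested there, and fewer libraries, none of them naive, then estimate the spread. The main fit called 18 and 83 of all genes between temperatures. Without naive library 1 the numbers were 89 and 202, and without 1 activated library 7 to 8 and 30 to 43. The reason for these differences was not tested. Leaving out each library in turn gave 14 to 20 higher and 14 to 23 lower at 37 °C, 13 to 20 and 14 to 25 at 39 °C, and 0 of either between temperatures. Of all 13583 to 13691 genes tested, those fits called 3723 to 4338 higher and 3806 to 4422 lower at 37 °C. They called 3539 to 4219 and 3519 to 4142 at 39 °C, and 7 to 89 and 30 to 202 between temperatures. RLE or library size scaling, other count filters and DESeq2 1.42.0 gave 15 to 18 higher and 16 to 20 lower at 37 °C, and 13 to 15 and 17 to 20 at 39 °C. Of all 12518 to 29586 genes tested, they called 3912 to 4374 higher and 4047 to 4704 lower at 37 °C. At 39 °C they called 3669 to 4093 and 3732 to 4448. Removing the trend with exon length, chosen after seeing the data, gave 18 and 23 in both. Of all 13326 genes in that fit, 4311 were higher and 4373 lower at 37 °C, and 4135 and 4168 at 39 °C. Of single members' values under the alternatives, 3346 kept their call and direction, 112 lost a call, 66 gained one and 147 uncalled values changed sign. Of 68 members, 67 stayed uncalled between temperatures throughout.

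Library numbers are shared between groups. Deviations of same-numbered libraries correlated at -0.17 to 0.33 over 9 pairs, against -0.34 to 0.36 over the other 18. With 3 libraries a group and deviations that followed exon length, this cannot show whether same-numbered libraries share a mouse or a batch. With the replicate number as a block 21 members were higher and 19 lower at 37 °C, 17 and 20 at 39 °C, and 0 differed between temperatures. Of all 13328 genes, that fit called 4234 and 4285 at 37 °C, 4026 and 4039 at 39 °C, and 16 and 81 between temperatures. With 3 libraries a group, changes of low genes such as Hdac11 are the least certain. At 39 °C against naive, Hdac11 was not called by DESeq2 (-1.11, adjusted p = 0.0882, DESeq2).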
